A study of Mus musculus with 2 samples.

Results

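The miR-9 and miR-124 families are made from several genes each that encode the same mature miRNA. The rows of the count tables were matched by gene identifier to GENCODE, which gave the 6 loci Mir9-2, Mir9-3, Gm25641, Mir124a-1, Mir124a-2 and Mir124a-3 among 1973 miRNA loci. Gm25641 is annotated opposite Mir9-1, a gene not counted separately in these tables. The reads on the strand opposite Gm25641 were therefore taken as the reads of the Mir9-1 strand. The libraries came from midbrain tissue of mice of the B6NCrl strain at embryonic day 14.5 and cover RNA shorter than 30 nt, per the labels. They form 1 group of 2 biological replicates without any treatment or allele, and therefore hold no contrast between conditions. Each replicate was a midbrain from a single pup according to one label, while another gives the sex as pooled male and female. The replicates carry the same donor identifier and differ in collection day. The spread between them may therefore be partly technical.

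MicroRNAs pair with target transcripts mainly through the seed, bases 2 to 8 of the mature strand, and reduce their translation and stability. miR-9 is abundant in neural progenitors and in some young neurons, where it is known to act on regulators of progenitor renewal. miR-124 is the classic neuronal miRNA: it rises as progenitors become neurons and represses transcripts that neurons do not use. Both families are therefore standard markers of neurogenesis in the embryonic brain. The colliculi and tegmentum of the midbrain hold dividing progenitors and newborn neurons side by side at this age, and in whole tissue a change in the number of cells of a type cannot be told apart from a change in RNA per cell.

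The miR-9 hairpins are shown first because the reads could be assigned to a locus only where these sequences differ. The RefSeq sequences (GRCm38.p6, the assembly also named mm10) are given 5′ to 3′, with the 2 mature strands in capitals.
Mir9-1 (chr3:88215598-88215686, plus strand): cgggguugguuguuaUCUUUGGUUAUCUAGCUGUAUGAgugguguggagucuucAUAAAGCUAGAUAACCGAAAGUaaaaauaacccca
Mir9-2 (chr13:83738814-83738885, plus strand): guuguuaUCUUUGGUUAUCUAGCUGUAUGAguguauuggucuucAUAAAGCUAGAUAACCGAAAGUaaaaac
Mir9-3 (chr7:79505264-79505353, plus strand): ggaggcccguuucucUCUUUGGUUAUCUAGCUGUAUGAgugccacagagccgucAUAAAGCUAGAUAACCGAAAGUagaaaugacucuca

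All 3 hairpins hold the same 2 mature strands, shown here with the seed in capitals.
miR-9-5p: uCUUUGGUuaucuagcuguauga
miR-9-3p: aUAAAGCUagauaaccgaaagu
The strand opposite Mir9-1, which is the annotated strand of Gm25641, encodes a further pair named miR-9b.
miR-9b-5p: uUCGGUUAucuagcuuuauga
miR-9b-3p: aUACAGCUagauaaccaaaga
These 4 seeds differ from each other, and in the RefSeq table each belongs to 1 mature name only. Mir124a-1, Mir124a-2 and Mir124a-3 are described by their counts and positions.

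The hairpin of Mir9-3 departs from the other two close to its mature strands. Directly before miR-9-5p, 1 base was enough to tell Mir9-3 from both other copies, and 2 bases after miR-9-3p also sufficed. Mir9-1 and Mir9-2 were identical over the 7 bases before miR-9-5p, where the hairpin of Mir9-2 ends. To tell them apart took 4 bases after miR-9-5p, 6 bases after miR-9-3p or 7 bases before miR-9-3p. The longest stretch shared by the annotated hairpins was 33 nt for Mir9-1 and Mir9-2, against 26 nt for Mir9-3 with either. In the miR-124 family the longest shared stretch was 32 nt for Mir124a-1 with Mir124a-2, 31 nt for Mir124a-1 with Mir124a-3 and 32 nt for Mir124a-2 with Mir124a-3.

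Every locus of these families lies in or beside a long noncoding RNA gene in GENCODE M21. Mir9-3 is within an intron of Mir9-3hg, and Mir9-1 within an intron of Gm3764. Mir9-2 lies over its full 72 nt in an exon of C130071C03Rik. Mir124a-1 (chr14:64590657-64590741) lies over its full 85 nt in an exon of Mir124a-1hg. Mir124a-2 (chr3:17795662-17795770) has 27 of its 109 nt in an exon of Mir124-2hg, and Mir124a-3 (chr2:180894040-180894107) overlaps the start of Gm27032 by 3 nt. All are on the plus strand except Gm25641 (chr3:88215589-88215696), which is on the minus strand.

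Sense reads at miRNA loci totalled 7302633 and 3966727 in replicates 1 and 2. Levels are CPM, counts scaled to the sense total of each library. A count at a miRNA locus is a count of short whole strands, so that no division by length was made. A single read stood for 0.137 CPM in replicate 1 and 0.252 CPM in replicate 2, and the level of 3 reads, the limit that a count of 0 allows, was 0.411 and 0.756 CPM. Reads that mapped to several places, 36.2% and 36.9% of all reads, were kept apart from the loci. They numbered 6459664 and 3533259, or 1595 and 1455 times the reads assigned to the miR-9 loci and 42220 and 47110 times those assigned to the miR-124 loci. How many of them came from miR-9 or miR-124 was not tested. The levels below are therefore levels of reads that could be assigned to 1 locus, not of the mature miRNAs. All 7 loci listed here as neural markers were detected (at least 10 reads in each replicate), against 20.1% of all 1973 loci. Their summed level was 41410 CPM in replicate 1 and 46785 CPM in replicate 2. Detection was not particular to neural markers. The listed red cell (3 of 3), white cell (2 of 2 with a row) and vessel (3 of 3) markers were detected too, and 1 of 3 mesenchyme markers. These lists were chosen with earlier results of these data known.

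The miR-9 reads that could be assigned to 1 locus lay almost entirely at Mir9-3. Mir9-3 had 3752 reads in replicate 1 and 2212 in replicate 2, or 514 and 558 CPM. Its mean was 536 ± 31.0 CPM (SD, n = 2), which placed it at rank 123 of 1973 loci. The Mir9-1 strand had 272 and 213 reads, or 37.2 and 53.7 CPM, with a mean of 45.5 ± 11.6 CPM. Mir9-2 had 25 and 3 reads, or 3.42 and 0.756 CPM, so that in replicate 2 it stood at the level of 3 reads. The order Mir9-3, Mir9-1 strand, Mir9-2 was the same in both libraries, and the intervals of the 3 loci did not overlap within either of them.

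Within the miR-9 family Mir9-3 took 92.7% of the assignable reads in replicate 1 and 91.1% in replicate 2. The exact Clopper-Pearson 95% intervals were 91.8 to 93.4 and 89.9 to 92.2. The Mir9-1 strand took 6.72% (5.97 to 7.53) and 8.77% (7.68 to 9.97). Its interval in replicate 2 lay above that in replicate 1. All such intervals here cover counting error only, since PCR copies of a molecule are counted as separate reads. Mir9-3 had 13.8 times the reads of the Mir9-1 strand in replicate 1 (12.2 to 15.7) and 10.4 times in replicate 2 (9.02 to 12.0). The locus with the most reads was the one that 1 base sets apart, and the other 2 need at least 4 bases. The part of read assignment in this order was not tested.

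Assignable miR-124 reads were few at every gene. Mir124a-2 had 81 reads in replicate 1 and 46 in replicate 2, or 11.1 and 11.6 CPM, with a mean of 11.3 ± 0.357 CPM (SD, n = 2). Mir124a-1 had 55 and 23 reads, or 7.53 and 5.80 CPM, with a mean of 6.66 ± 1.23 CPM. Mir124a-3 had 17 and 6 reads, or 2.33 and 1.51 CPM, with a mean of 1.92 ± 0.577 CPM. Mir124a-2 had the highest count in both libraries and Mir124a-3 the lowest. Mir124a-2 had 1.47 times the reads of Mir124a-1 in replicate 1 (95% interval 1.03 to 2.11) and 2.00 times in replicate 2 (1.19 to 3.46), both intervals lying above 1. Mir124a-1 had 3.24 times the reads of Mir124a-3 in replicate 1 (1.85 to 5.95) and 3.83 times in replicate 2 (1.52 to 11.5). These ranks were 306, 332 and 414 of 1973.

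**Figure D1:**
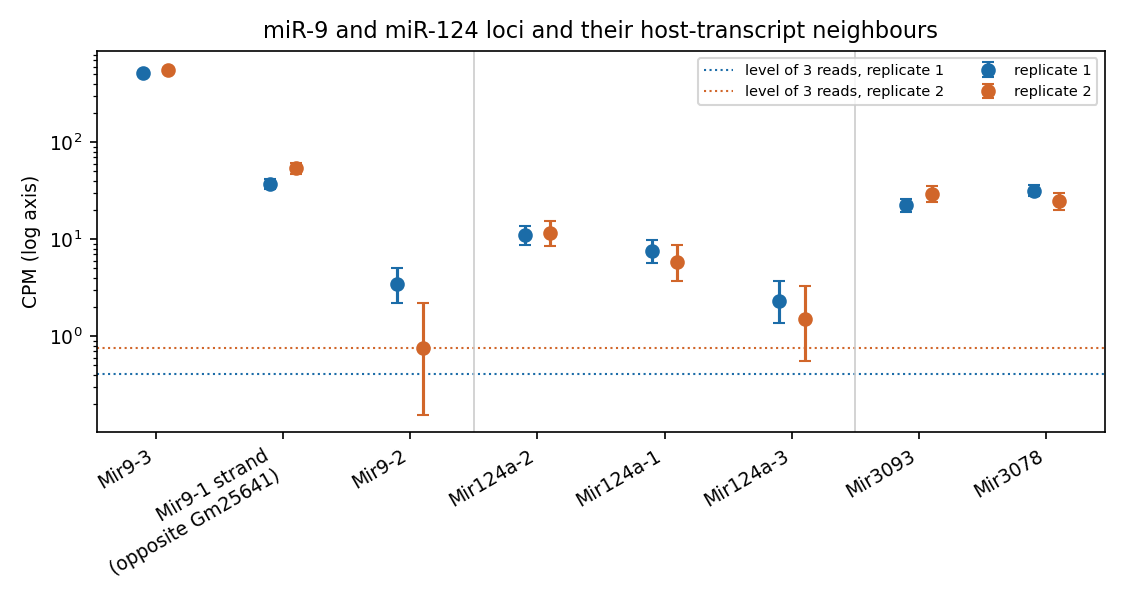
CPM (log axis) of each miR-9 and miR-124 locus and of the neighbours Mir3093 and Mir3078 in both replicates, with exact 95% intervals for counting error and dotted lines at the level of 3 reads. Mir9-3 stands at 514 and 558 CPM, the Mir9-1 strand at 37.2 and 53.7, and the miR-124 loci at or below 11.6 CPM.

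Summed over their loci, miR-9 reached 554 and 612 CPM (583 ± 40.8, SD, n = 2) and miR-124 reached 21.0 and 18.9 CPM (19.9 ± 1.45). The ratio of miR-9 to miR-124 reads was 26.5 in replicate 1 (95% interval 22.5 to 31.3) and 32.4 in replicate 2 (25.7 to 41.3), and these intervals overlap. It compares assignable reads only, and the families differ in how much sequence their copies share, so that it is no ratio of the mature miRNAs.

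With at least 10 reads in each replicate, 4 of 6 loci were detected: Mir9-3, the Mir9-1 strand, Mir124a-1 and Mir124a-2. Over all 1973 loci 20.1% passed the same minimum with reads of the annotated strand, on which Gm25641 had 0. Mir9-2 failed it through replicate 2, and so did Mir124a-3. The median level of the 6 loci was 9.00 CPM, against a median of 120 CPM over the 397 detected loci and of 0 over all loci.

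Most of the other listed families with several copies gave more assignable reads than miR-124. Of a list of 43 such loci 41 had a row, 40 of them were detected, and their median was 348 CPM. Levels ran from 6180 ± 130 CPM at Mir181a-1 to 2.45 ± 0.607 CPM at Mir29b-2. This list was chosen with earlier results of these data known. All 81 loci with a count and a mature strand found in another hairpin had a median of 3.72 CPM, with 45 detected. They include the miR-9 loci and not the miR-124 loci, for which no RefSeq sequence was available here. Of 12 loci listed as single-copy neural all 12 were detected, against 20.1% of all 1973 loci. They were chosen in the same way, so that their detection and level are no independent contrast. Their median was 542 CPM, from 17513 ± 704 CPM at Mir149 to 10.3 ± 4.69 CPM at Mir184. The summed mean level of miR-124 (19.9 CPM) exceeded that of 2 of 19 other families, Mir19b (19.4 CPM) and Mir29b (5.00 CPM). For Mir19b this did not hold in each library: in replicate 2 Mir19b-1 alone had 19.9 CPM, against 18.9 CPM for the summed miR-124 loci. The summed mean level of miR-9 exceeded that of 8 of 19. By means over the replicates, the copies of miR-9 also stood further apart than those of the 19 families: the mean of Mir9-3 was 256 times that of Mir9-2. The ratio of the highest to the lowest copy in the others ran from 1.04 to 121 with a median of 2.78, and it was 5.91 for miR-124. miR-9 and miR-124 have 3 copies each, while the other families have 2, except Mir7 with 3. Such a ratio tends to grow with the number of copies. Mir7b, counted in the Mir7 family, shares no stretch of 20 nt with another miRNA hairpin. The ratio for miR-9 is imprecise, because Mir9-2 had 3 reads in replicate 2. It was 150 in replicate 1 (95% interval 102 to 232) and 737 in replicate 2 (252 to 3578). In replicate 1 the next widest family, Mir181b, had a ratio of 113, within the interval of miR-9.

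**Figure D2:**
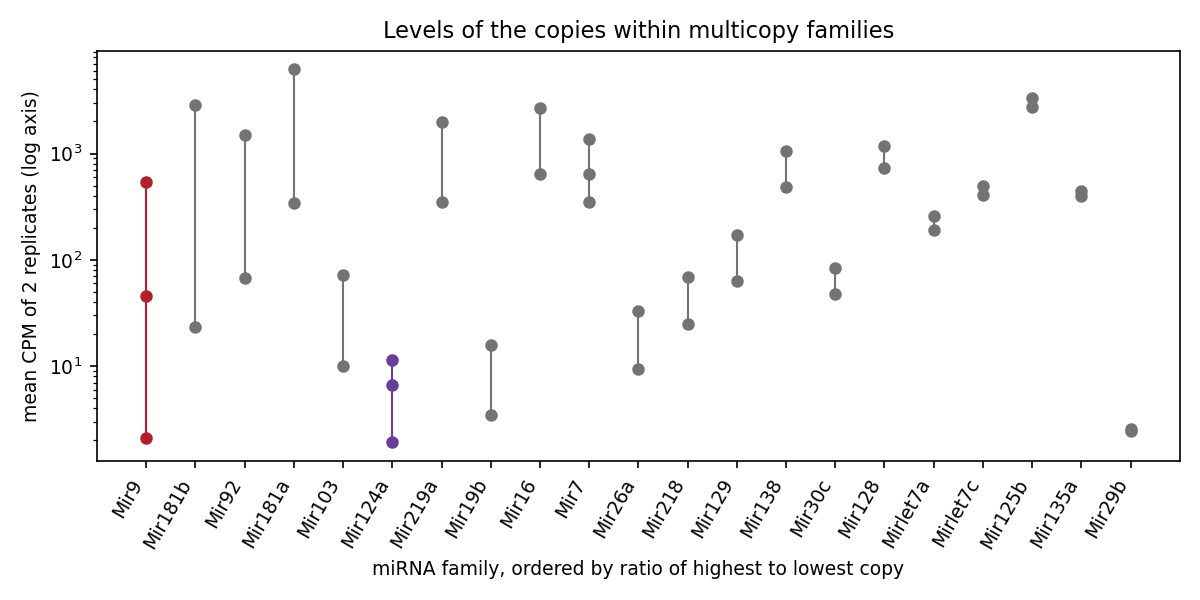
Mean CPM (log axis) of every copy in 21 multicopy families, ordered by the ratio of the highest to the lowest copy, with miR-9 in red and miR-124 in purple. miR-9 has the widest span, from 2.09 to 536 CPM, and the miR-124 copies lie between 1.92 and 11.3 CPM.

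The sharing of both mature strands sets the miR-9 loci apart from most of that list. In RefSeq, 81 loci with a count had a mature strand that occurs in another hairpin, and 49 of them had a second mature strand found in no other hairpin. For these 49 loci a read of the second strand names the locus without any extra base. Of the 37 listed multicopy loci in this set 33 had such a strand of their own, among them Mir128-1, Mir138-1 and Mir181a-1. None of the 3 miR-9 hairpins did. Of 17 loci with both mature strands shared, 4 were detected: Mir9-1, Mir9-3, Mirlet7a-1 and Mirlet7c-2. The miR-124 loci are absent from these sets for lack of a RefSeq sequence here, not because their mature strands are unshared.

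Levels are given here by the number of bases needed beyond a mature strand, and they did not fall steadily with it. The 49 loci that needed none had a median of 47.8 CPM, from 0 to 6180 CPM, with 37 detected. The 7 other loci that needed 1 or 2 bases had a median of 212 CPM, with 4 of 7 detected, beside 536 CPM for Mir9-3. The 8 other loci that needed 3 or more had a median of 0 CPM, with 2 of 8 detected, beside 45.5 CPM for the Mir9-1 strand and 2.09 CPM for Mir9-2. A further 14 loci had no difference within the hairpin and none was detected. These groups also differ in which miRNAs they hold. Where reads began and ended is not recorded in gene counts, and copies outside annotated hairpins were not searched.

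**Figure D3:**
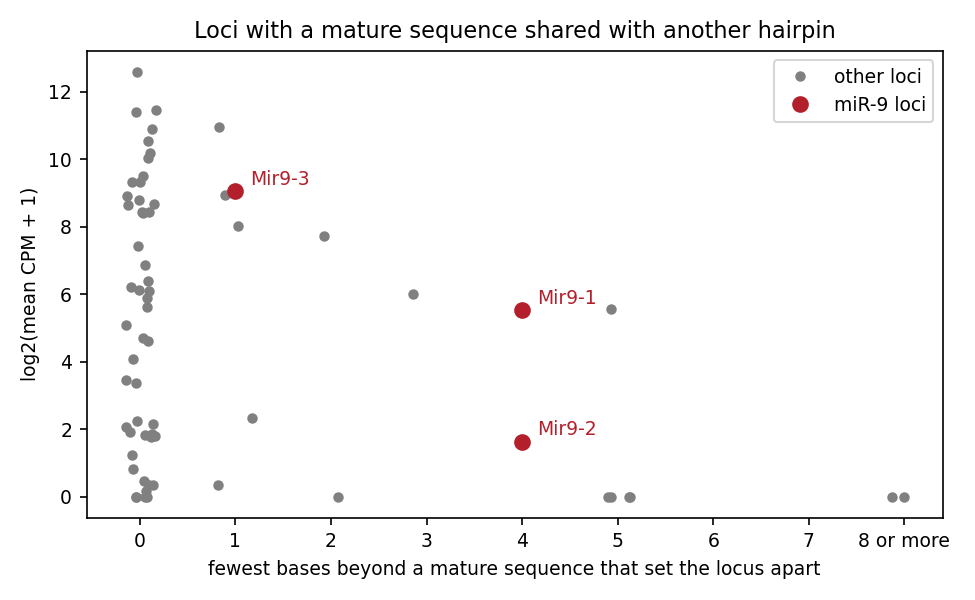
Level, as log2(mean CPM + 1), against the fewest bases beyond a mature strand that tell a locus from its copies (0 where a mature strand occurs in no other hairpin), for loci with a shared mature strand, with miR-9 loci in red. Loci with no difference within the hairpin are not drawn. Mir9-3 needs 1 base and Mir9-1 and Mir9-2 need 4.

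A pair of miRNAs with no copy among annotated miRNA hairpins shares host transcripts with these families. Mir3093 lies in an intron of Gm3764, as Mir9-1 does, with 340 nt between them. Mir3078 lies in an exon of Mir124a-1hg, with 443 nt between it and Mir124a-1. Neither shares a stretch of 20 nt with another miRNA hairpin, both were chosen by position, and a loss of their reads to the class that mapped to several places was not tested. Each was the only other locus with a count within 10 kb of a member. Mir3093 had 163 and 116 reads, or 22.3 and 29.2 CPM, with a mean of 25.8 ± 4.89 CPM (SD, n = 2). Mir3078 had 231 and 98 reads, or 31.6 and 24.7 CPM, with a mean of 28.2 ± 4.90 CPM.

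In both hosts the proportion of the neighbours was similar in the libraries, with intervals that overlap. The Mir9-1 strand had 1.67 times the reads of Mir3093 in replicate 1 (95% interval 1.37 to 2.04) and 1.84 times in replicate 2 (1.46 to 2.32). Mir3078 had 4.20 times the reads of Mir124a-1 in replicate 1 (3.12 to 5.74) and 4.26 times in replicate 2 (2.68 to 7.03). Mir3078 had more reads than Mir124a-1 in each library, with both intervals above 1, and both hairpins lie in exons of Mir124a-1hg. Mir3078 alone also had more reads than the 3 miR-124 loci together, which had 153 and 75. These are assignable reads only. The miR-124 loci share stretches of at least 20 nt with each other, and Mir3078 shares none with another miRNA hairpin. The counts therefore do not measure which miRNA was made at the higher level.

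The ratio between the libraries was near 1 for the leading copy of each family. After TMM scaling, the log2 ratio of replicate 2 to replicate 1 was 0.03 for Mir9-3 (95% interval -0.05 to 0.11) and -0.03 for Mir124a-2 (-0.58 to 0.51). Both intervals include 0. Of 397 detected loci 83.4% stayed within 1.5-fold. The Mir9-1 strand was at 0.44 (0.17 to 0.70) and Mir3093 at 0.30 (-0.06 to 0.65), both toward replicate 2. Mir124a-1 was at -0.47 (-1.24 to 0.26) and Mir3078 at -0.45 (-0.80 to -0.10), both toward replicate 1. Mir124a-3 was at -0.71 (-2.34 to 0.70). The intervals of the 3 miR-124 loci overlap, and a difference between these copies was not tested. Mir9-2, with 3 reads in replicate 2, was at -2.27 (-4.64 to -0.56), an interval that reaches into the range of most detected loci, whose 5th percentile was -0.80. These intervals compare the libraries themselves and do not include variation between animals.

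**Figure D4:**
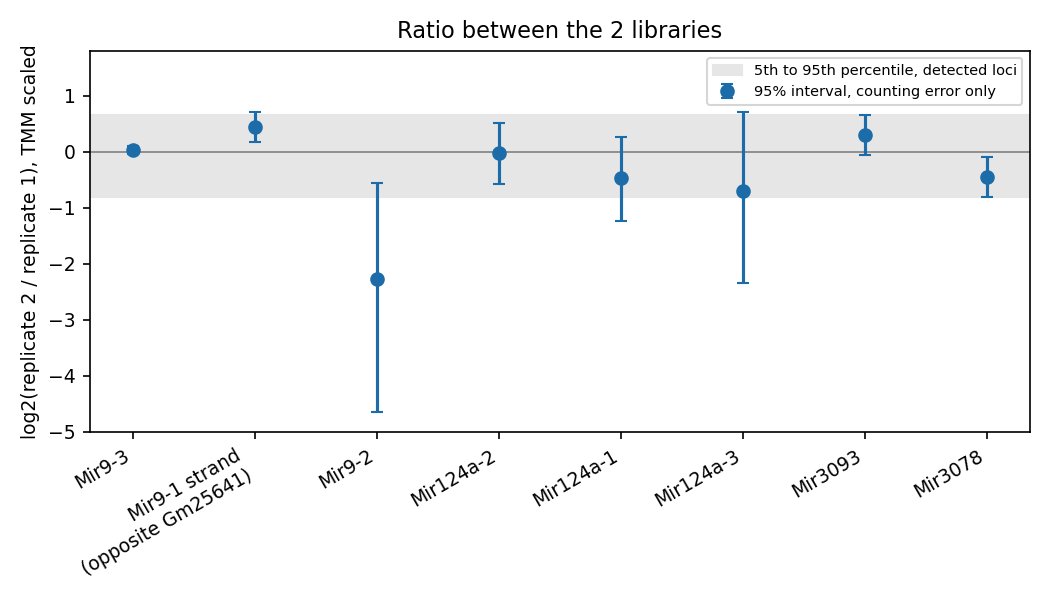
Log2 ratio of replicate 2 to replicate 1 after TMM scaling, with 95% intervals for counting error, and the band from the 5th to the 95th percentile of the 397 detected loci. Mir9-2 at -2.27 lies outside the band, with an interval that reaches into it. Mir9-1 and Mir3093, and Mir124a-1 and Mir3078, lie on the same side of 0 as each other.

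Markers of other cells also differed between these libraries. Of the detected red cell, white cell, vessel and mesenchyme markers, 2 of 3, 2 of 2, 3 of 3 and 1 of 1 were lower in replicate 2. The summed level was 486 and 153 CPM for red cells, 315 and 113 CPM for white cells, 32566 and 21781 CPM for vessels and 232 and 64.3 CPM for mesenchyme in replicates 1 and 2. Most of the red cell sum was Mir451a, at 447 and 123 CPM. Mir144 stood at 28.8 and 18.9 CPM, and Mir486, the red cell marker that was not lower, at 9.86 and 10.8 CPM. The mesenchymal Mir214 stood at 224 and 63.3 CPM. None of these markers with a row was at 0. Of 12 loci listed as single-copy neural 9 were higher in replicate 2, with a median log2 ratio of 0.27. The 3 lower were Mir149 (-0.01), Mir139 (-0.21) and Mir150 (-0.52). Of 40 detected multicopy loci 12 were higher and 28 lower, with a median of -0.19. Over all 397 detected loci 200 were higher and 197 lower, with a median of 0.01. The part of tissue makeup in the ratios of the miR-9 and miR-124 loci was not tested.

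Reads at 5 of the 6 loci lay on one strand or nearly so. At Gm25641 all 272 reads of replicate 1 and all 213 of replicate 2 lay on the Mir9-1 strand. The annotated strand, that of miR-9b, had 0 reads in each, which allows a share of up to 1.10% and 1.41%. At Mir9-3 the opposite strand held 3 of 3755 and 5 of 2217 reads. Mir9-2, Mir124a-1 and Mir124a-2 had no opposite read in either library, among 25 and 3, 55 and 23, and 81 and 46 reads.

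Mir124a-3 was the exception. Its opposite strand held 13 of 30 reads in replicate 1, or 43.3%, and 12 of 18 in replicate 2, or 66.7%. The exact Clopper-Pearson 95% intervals were 25.5 to 62.6 and 41.0 to 86.7. Among 410 loci with at least 10 reads of both strands in each replicate, 2.93% had at least 25% of them on the opposite strand in each. Of these 12 loci 11 overlap another miRNA gene on the other strand. Mir124a-3 was the 1 locus that does not, in GENCODE M21.

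**Figure D5:**
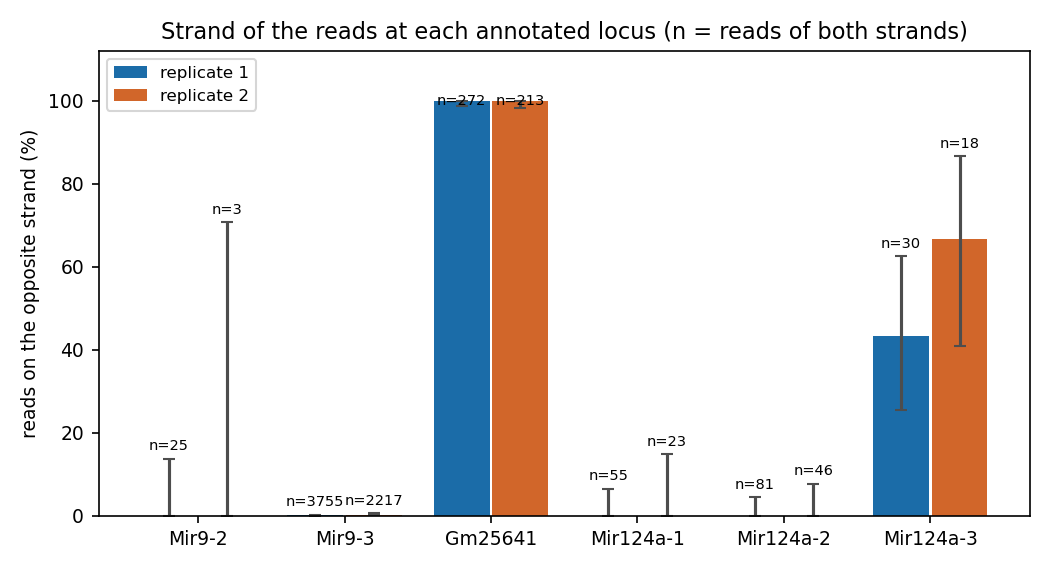
Percentage of reads on the strand opposite each annotated locus in both replicates, with exact 95% intervals for counting error and the number of reads of both strands above each bar. Gm25641 stands at 100% in both, Mir124a-3 at 43.3% and 66.7%, and Mir9-3 below 1%. Mir9-2, Mir124a-1 and Mir124a-2 had no opposite read, with intervals that reach up to 70.8% where 3 reads were counted.

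The 3 loci nearest in level to the leading copy of each family had no shared stretch of 20 nt, as most detected loci do not (86 of 397 do). By Euclidean distance of log2(CPM + 1) over the 2 libraries, Mir9-3 was closest to Mir187 (0.13), Mir676 (0.14) and Mir185 (0.16), whose means were 566 ± 59.1, 563 ± 2.87 and 496 ± 13.3 CPM. Mir124a-2 was closest to Mir293 (0.13), Mir3097 (0.14) and Mir7688 (0.16), whose means were 10.6 ± 0.0658, 11.8 ± 1.44 and 10.6 ± 0.341 CPM. With 2 samples this is likeness in level and nothing more.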

How the data were processed

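The authors deposited raw counts of reads at each miRNA gene, in 3 columns: both strands, the annotated strand, and the opposite strand. The accompanying deposited text names assembly mm10 and annotation M4. For the aligner and counter, tool and version were not given in the sources used here. At all 1973 loci the first column equalled the sum of the other 2, and the 4 classes of reads outside genes were left out of totals.

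Symbols came from GENCODE M21 (1894 of 1973 loci matched, 79 did not). Sense counts were scaled to CPM, with the opposite-strand count for Gm25641. Ratios between libraries used TMM sizes from edgeR 4.0.16 in R 4.3.3, tested on simulated counts. A count of 0 would have been set to 0.5. Intervals are exact binomial (scipy 1.17.1). With 1 group no test between conditions was made. Sequences came from the RefSeq table on GRCm38.p6, hairpin overlaps from GENCODE transcripts.

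Named loci were the 6 members, the 3 nearest in level to the leading copy of each family, and the highest and lowest of each list. Mir3093 and Mir3078 were added for their position, and loci with both mature strands shared, markers and other examples after values were seen. The members and lists were chosen with earlier results of these data known. Alternatives were DESeq2 1.42.0 size factors, plain totals, all mapped reads, both strands, other minimums and pseudocounts, other stretch lengths, and each replicate left out.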

Additional observations from a re-analysis of the deposited data

Results flagged for a closer look

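Reads on the strand opposite Mir124a-3, where no gene is annotated in GENCODE M21, lie outside the sense counts that the levels rest on. They numbered 13 in replicate 1 and 12 in replicate 2, above the 3 reads that a count of 0 allows, while the opposite strands of Mir124a-1 and Mir124a-2 had 0 reads in each library.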

How the results depend on the processing

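Of 97 alternatives, 82 left their value within the SD of the replicates (for ratios between libraries, within the 95% interval; for counts of loci, within 1.5 times), and 15 moved it further. Part of the 82 was fixed by construction. With 2 replicates, leaving 1 out always stays within their SD, for levels and for the ratio of miR-9 to miR-124. Counting both strands could not change a locus whose reads all lay on 1 strand. The log2 ratio of Mir124a-2 between the libraries, whose interval includes 0, went from -0.03 to 0.06 with plain totals. With all mapped reads as the denominator, which lowers every level by construction, miR-9 stood at 296 CPM and miR-124 at 10.1 CPM. Without the strand opposite Gm25641 miR-9 stood at 538 CPM, and with both strands counted miR-124 stood at 22.3 CPM. A minimum of 100 reads left 2 detected loci. Leaving out a replicate gave 4 or 6 detected loci, miR-9 levels of 554 to 612 CPM, miR-124 levels of 18.9 to 21.0 CPM and a ratio of 26.5 to 32.4. With plain totals the log2 ratio between the libraries was 0.14 for miR-9. The median log2(CPM + 1) of the 6 loci, 3.28, became 3.14 with a pseudocount of 0.1 CPM and 4.58 over detected loci only, which leaves out the lowest 2. All 6 loci share a stretch of 18, 20 or 22 nt with another hairpin. No paired analysis was possible because the series has 1 group. Depth limits Mir9-2 and Mir124a-3, with 3 and 6 reads in replicate 2.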
